A study of Populus trichocarpa with 12 samples.

Results

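A set of 1193 genomic regions carried less acetylation of histone H3 lysine 9 (H3K9ac) in the wood-forming layer of black cottonwood stems (Populus trichocarpa) after 7 days without water than in watered plants, and had no overlapping entry in the list of changed regions after 5 days. They were selected from 12101 regions of the deposited day 7 table, which lists places where diffReps found drought and watered chromatin to differ. A region became a member when it shared no base with any of the 10605 regions of the day 5 table, and when both day 7 libraries lay below both day 0 libraries. Its mean at day 7 also had to be at most 0.833 of that at day 0, its length under 3000 bp, and its enrichment over input at least 0.5. Of the 5335 day 7 regions without a day 5 overlap, 2295 were lower on average at day 7, 2211 had all libraries in that order, and 1194 passed the ratio. The length limit removed 1 of these and the enrichment limit none. The members make up 9.86% of the listed day 7 regions and 19.2% of the 6206 listed regions with a lower mean at day 7, and they cover 1504 kb.

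The plants had grown for 3 months in a greenhouse, and the tissue was stem differentiating xylem. Day 7 plants had been without water for 7 days, with a soil water content of 29% and a xylem water content of 74.3% per the labels. The fully irrigated day 0 plants had 74% and 80.6%, and the plants of the day 5 list, after 5 days, had 33% and 75.3%. Each day had 2 H3K9ac libraries and 2 input libraries from chromatin without antibody. Nothing says that the libraries came from separate plants, so p-values and spreads may be those of technical replicates. Day 0 is the only watered group, so lack of water cannot be told apart from the days that passed.

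H3K9ac is written by histone acetyltransferases such as the GCN5 family and erased by histone deacetylases. In plants it sits mainly around the start of transcribed genes and goes with open, active chromatin. Differentiating xylem is the layer inside the cambium in which new wood cells expand, lay down secondary walls rich in cellulose, xylan and lignin, and, in vessels and fibres, die to become water-conducting or supporting tissue. Drought slows wood formation in poplars and changes vessel size. Chromatin immunoprecipitation followed by sequencing (ChIP-seq) counts DNA fragments that carry the mark, here in bulk tissue, where fewer cells with the mark and less mark per cell cannot be told apart.

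Positions count from 1 and follow the genome build of the authors' tables, whose full name the sources used here do not give. Only a gene table of P.trichocarpa_v4.1 was used for comparison. Of the 1193 members, 22 start beyond the final gene that it holds for their chromosome. So do 245 of all 12101 listed day 7 regions. The members were therefore not assigned to genes, and no sequence is shown. For the same reason the tissue label was not checked against marker genes.

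The H3K9ac level of the members was lower at day 7 in each library, as the selection requires. Per kilobase, the median member had 198 and 195 normalised reads in the day 7 libraries, against 254 and 256 at day 0. Normalised reads are read numbers divided by a constant per library. Both day 7 medians lie below both day 0 medians. Averaged over the libraries, the medians were 196 at day 7 and 255 at day 0. In the regions that met the same limits but did overlap a day 5 region (n = 2676), they were 203 at day 7 and 287 at day 0. In regions gained at day 7 only, chosen by the mirrored limits (n = 2009), they were 250 at day 7 and 191 at day 0. Over all listed regions they were 248 at day 7 and 246 at day 0.

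The median ratio of day 7 to day 0 was 0.755, a log2 change of -0.41, and the ratios reached down to 0.470. These values chose the members and are given as a description, with no test. They depend on the scale: the median log2 change of the same members was -0.73 in unscaled reads and -0.58 in reads divided by the trimmed mean per bin, scales on which the selection itself gives 2342 and 2178 regions. Of the members, 2 had a ratio under 0.5, 25 lay between 0.5 and 0.6, 298 between 0.6 and 0.7, 249 between 0.7 and 0.75, 328 between 0.75 and 0.8, and 291 between 0.8 and the limit. The losses that overlapped a day 5 region had a median ratio of 0.716 (log2 change -0.48). Ratios under 0.5 made up 0.168% of the members and 2.06% of those overlapping losses, and ratios from 0.5 to 0.6 made up 2.10% and 8.71%. The difference between these sets was not tested, because day 7 values chose both. The median log2 change was -0.35 over all listed regions with a lower mean at day 7, and -0.06 over all listed regions.

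**Figure D1:**
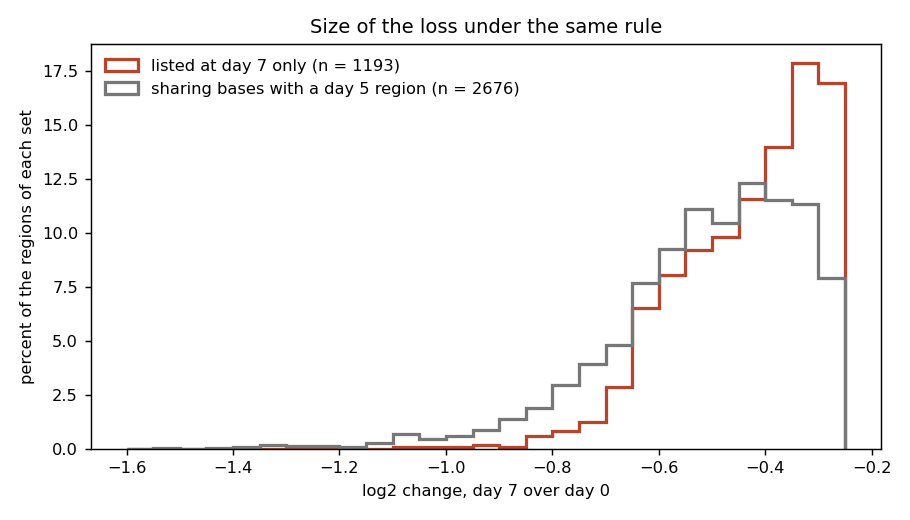
Distribution of the log2 change (day 7 over day 0, x axis) as percent of the regions of each set (y axis), for the 1193 lost regions listed at day 7 only (red) and the 2676 losses chosen by the same limits that share bases with a day 5 region (grey). Both stop at the ratio limit of 0.833, the red outline is higher next to it, and the grey outline reaches further to the left, with medians of -0.41 and -0.48.

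The deposited region test called 1117 members at an adjusted p under 0.05, where 45.0% of all listed day 7 regions were called lower. By limma on log2 normalised reads, 1193 of 1193 members were called lower, where 42.0% of all listed regions were. Both day 7 libraries lay below both day 0 libraries in all 1193 by the selection, against 49.7% of the listed regions. Nothing is read from these counts, since the selection used the same libraries. The 76 members that missed the deposited threshold were at least 1100 bp long and had a median log2 change of -0.31.

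The 10 members with the lowest log2 change were 1.75 to 2.13 times lower at day 7, and 4 of them lie on chromosome 1. The lowest was chr1:26590101-26592000, with 234 and 213 normalised reads at day 7, against 535 and 415 at day 0. Its day 7 libraries lay close together, its day 0 libraries were farther apart, and the groups stood well clear of each other. The limma log2 change was -1.08 (SE 0.11), and the 1000 bp window that the authors single out inside it had a deposited log2 change of -1.34. A second region with a ratio under 0.5, chr12:13906601-13908200, had 305 and 231 normalised reads at day 7, against 617 and 490 at day 0 (log2 change -1.05, SE 0.13). The spread in both groups was wider here, but the highest day 7 library was still far below the lowest day 0 library.

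The third was chr1:15195301-15197100, with 184 and 210 normalised reads at day 7, against 393 and 378 at day 0 (log2 change -0.97, SE 0.08). It has the smallest SE of the first 3. Next came chr18:15316501-15317900, with 174 and 147 normalised reads at day 7, against 291 and 310 at day 0 (log2 change -0.91, SE 0.10). The fifth, chr1:33655601-33656700, had 142 and 164 normalised reads at day 7, against 329 and 249 at day 0 (log2 change -0.91, SE 0.12). In each, the 2 groups were separated by more than either group's own replicates. Another region of chromosome 1, chr1:35985501-35987400, had 213 and 285 normalised reads at day 7, against 437 and 451 at day 0 (log2 change -0.85, SE 0.11). Here the day 7 libraries were the more variable pair.

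The remaining 4 of the 10 had limma log2 changes between -0.85 and -0.81. At chr11:5818301-5819900 the libraries gave 183 and 199 normalised reads at day 7, against 320 and 368 at day 0. At chr16:4589401-4591300 they gave 268 and 263 at day 7, against 544 and 411 at day 0. On chromosome 16 the day 0 libraries differed far more than the day 7 libraries, without reaching them. For chr4:21223701-21225000 the values were 162 and 116 normalised reads at day 7, against 238 and 251 at day 0. For chr11:16982401-16983500 they were 144 and 156 at day 7, against 229 and 301 at day 0. These are the shallowest of the 10, with at most 301 normalised reads in any library. All 10 passed the deposited adjusted p of 0.05 and were longer than 1 window.

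**Figure D2:**
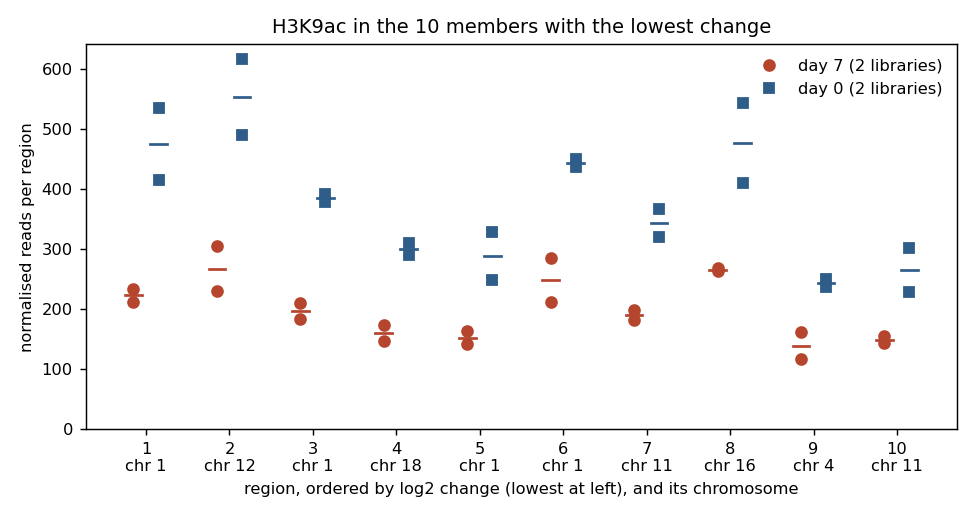
Normalised reads per region (y axis) in each library of the 10 members with the lowest log2 change (x axis, lowest at left, with the chromosome), day 7 as red circles left of day 0 as blue squares, and the mean of each pair of libraries as a short line. In each of the 10, both day 7 points lie below both day 0 points, by 1.75 to 2.13 times on the means.

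Some members carried far more reads than the median member. The one with the highest day 0 signal, chr1:27902001-27903600, had 1055 and 876 normalised reads at day 7, against 1900 and 1331 at day 0 (log2 change -0.73, SE 0.14). Its day 0 libraries differed by more than the day 0 libraries of most members, and still lay above both day 7 libraries. On chromosome 10, chr10:18377501-18379600 had 1006 and 933 normalised reads at day 7, against 1477 and 1409 at day 0 (log2 change -0.57, SE 0.08). Also on chromosome 10, chr10:14759801-14762000 had 967 and 890 normalised reads at day 7, against 1403 and 1137 at day 0 (log2 change -0.45, SE 0.10). In both, replicates varied less than the days differed.

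Across the members, the median change was largest at the lowest day 0 levels. The 35 members with under 200 normalised reads per kb at day 0 had a median log2 change of -0.55, and the 492 from 200 to 250 had -0.43. The median was -0.38 in the 367 members from 250 to 300 and in the 198 from 300 to 400, and -0.42 in the 101 members with 400 or more. The losses that overlapped a day 5 region had -0.62 under 200 and -0.41 at 400 or more. All listed regions with a lower mean at day 7 had -0.58 and -0.34, so this is not particular to the members. Only windows past a p-value threshold were listed, and the day 0 level is the denominator of the change. The lowest day 0 mean of a member was 203.86 normalised reads, so no member of 1000 bp can fall under 200 per kb. The median log2 change was -0.36 in members of 1000 bp and -0.47 in those of 2000 bp or more. The part of listing, denominator or length in this pattern was not tested.

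**Figure D3:**
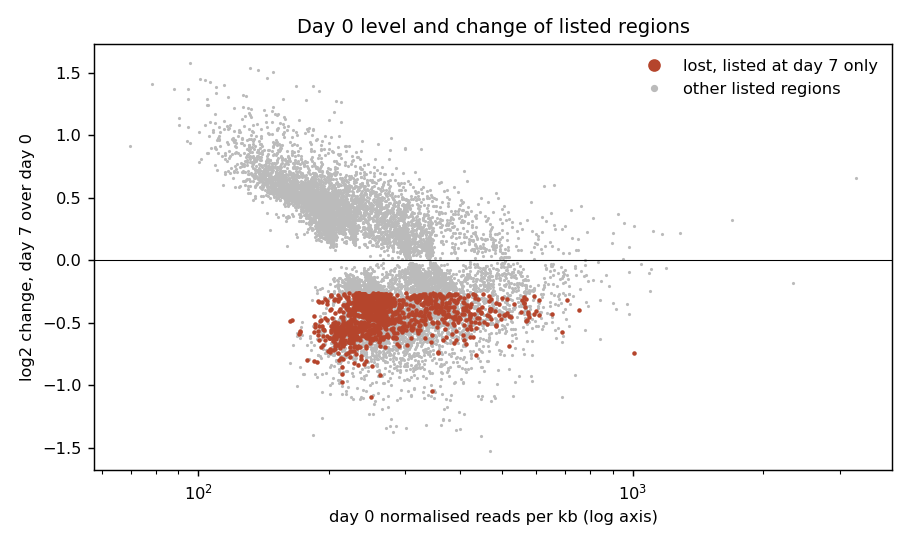
Log2 change, day 7 over day 0 (y axis), against the day 0 level in normalised reads per kb (x axis, log scale), for the lost regions listed at day 7 only (red, n = 1193) and the other listed regions (grey). The red points form a band below the ratio limit of 0.833, most of them between 200 and 400 normalised reads per kb, and some grey points reach lower values.

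Enrichment over input sets the immunoprecipitated reads of a region against its input reads. It is given as the geometric mean of the folds of both days over both inputs. Members had a median enrichment of 1.62, with a range of 0.710 to 5.08, and the median of all listed regions was 1.76. The 53 members with an enrichment under 1 hold, on this average, fewer immunoprecipitated than input reads after scaling, and had a median log2 change of -0.54. It was -0.43 in the 428 members from 1 to 1.5, -0.39 in the 408 from 1.5 to 2, -0.38 in the 283 from 2 to 3 and -0.40 in the 21 at 3 or more.

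The most enriched member, chr17:15856001-15857600, had 509 and 541 normalised reads at day 7, against 649 and 615 at day 0, with an enrichment of 5.08 and a log2 change of -0.27 (SE 0.08). It lies close to the ratio limit, with groups that do not overlap. Next, chr8:8973901-8974900 had an enrichment of 4.08, with 551 and 591 normalised reads at day 7, against 830 and 672 at day 0 (log2 change -0.39, SE 0.10). At the other end, chr1:47187601-47189200 had an enrichment of 0.710, with 204 and 194 normalised reads at day 7, against 362 and 292 at day 0 (log2 change -0.71, SE 0.10). The last 2 regions had SEs of a like size at very different enrichments.

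Members were short. A region is built from windows of 1000 bp moved in steps of 100 bp, and 463 members (38.8%) were 1 window long. Another 438 were 1100 to 1400 bp, 245 were 1500 to 1900 bp and 47 (3.94%) were 2000 bp or longer. In the losses that overlapped a day 5 region, 13.7% were 1 window long and 26.4% were 2000 bp or longer, with a median of 1600 bp, against 1100 bp in the members. In the regions gained at day 7 only, the median was 1100 bp and 36.4% were 1 window long. The part of length in the lack of overlap was not tested. The median log2 change was -0.36 in members of 1 window and -0.47 in those of 2000 bp or more.

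The longest member, chr8:3129001-3131700, had 704 and 688 normalised reads at day 7, against 1249 and 1104 at day 0 (log2 change -0.75, SE 0.08). Each pair of libraries was close together beside that difference. As long, chr5:24928501-24931200 had 519 and 585 normalised reads at day 7, against 749 and 689 at day 0 (log2 change -0.38, SE 0.09). Its groups were close to each other, and its deposited adjusted p in the authors' deposited table was 0.0491. The third in length, chr15:5092901-5095400 had 713 and 648 normalised reads at day 7, against 996 and 934 at day 0 (log2 change -0.51, SE 0.08).

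Within longer members the single window that the authors give for a region, here called the strongest, can be set beside the whole region. For the 730 members longer than 1 window, the authors' deposited table gives a median log2 change of -0.48 in the strongest window, against -0.42 over the whole region. The window was lower than its region in 537 of them, equal in 57 and higher in 136. In the 292 members of 1500 bp or more, the strongest window was inside the region in 180, at the end with lower coordinates in 62 and at the other end in 50. At chr8:3129001-3131700 the strongest window had a log2 change of only -0.26, against -0.76 over the region. The window that the authors single out is thus not always the one with the largest loss.

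Input DNA, sequenced without immunoprecipitation, had a median change near 0 at the members. Its change, day 7 over day 0, is given relative to the median listed region, since the depth of the inputs is unknown. The median over the members was -0.04 on the log2 scale, with a range from -0.58 to 0.96. Input was lower at day 7 in 677 members (56.7%), in 57.8% of the losses that overlapped a day 5 region, and in 36.4% of the regions gained at day 7 only. After subtraction of the input change, the median log2 change of the members was -0.40, with 1154 members below 0 and 39 at or above it. Below 0 were also 2623 of the 2676 losses that overlapped a day 5 region. The same held for 5546 of the 6206 listed regions with a lower mean at day 7, and 6154 of all 12101. With a ratio of at most 0.833 and input changes mostly near 0, the selection itself puts most members below 0, so nothing is read from this count.

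The lowest input change, -0.58 on the log2 scale, was at chr13:1211101-1212100. H3K9ac there was 364 and 272 normalised reads at day 7, against 449 and 428 at day 0 (log2 change -0.48, SE 0.11), and relative to input the change was 0.11. At the most enriched member, chr17:15856001-15857600, the input change was -0.55 and the change relative to input was 0.28, the highest of the members. In both, the lower H3K9ac value at day 7 came with a relative input that was lower still. The highest input change, 0.96, was at chr13:2103401-2105100, with 297 and 287 normalised reads of H3K9ac at day 7, against 398 and 456 at day 0 (log2 change -0.55, SE 0.08). There the change relative to input was -1.51. Among the 10 members with the lowest change, the input change ran from -0.24 to 0.62.

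**Figure D4:**
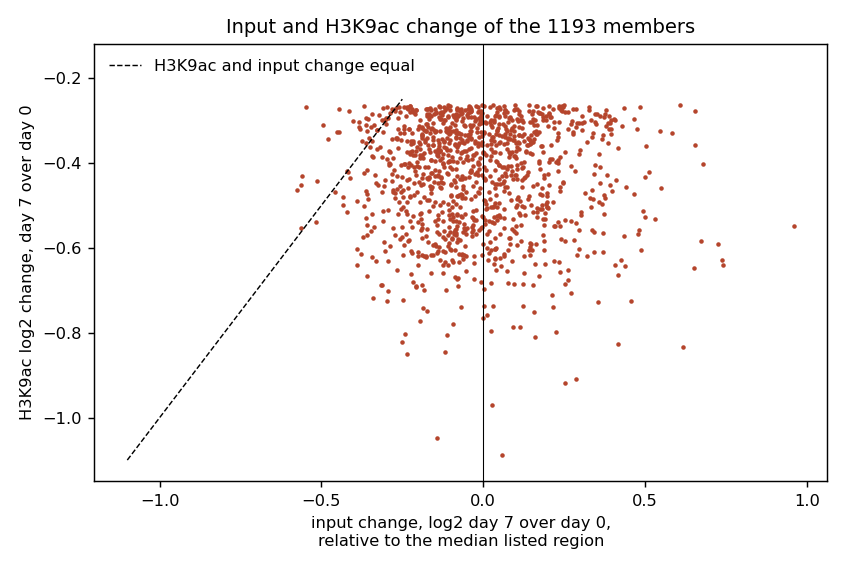
H3K9ac log2 change, day 7 over day 0 (y axis), against the input log2 change relative to the median listed region (x axis), 1 point per member (n = 1193). The dashed line marks equal changes, 39 members lie on it or to its left, and the points spread on both sides of an input change of 0.

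Members were found on all 19 chromosomes, from 28 on chromosome 19 to 140 on chromosome 1, and 1 lay on a scaffold. As a share of the lower listed regions of a chromosome they ranged from 16.4% on chromosome 9 to 23.5% on chromosome 15, with a median of 19.4%. The median log2 change per chromosome ran from -0.47 on chromosome 12 to -0.35 on chromosome 18.

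**Figure D5:**
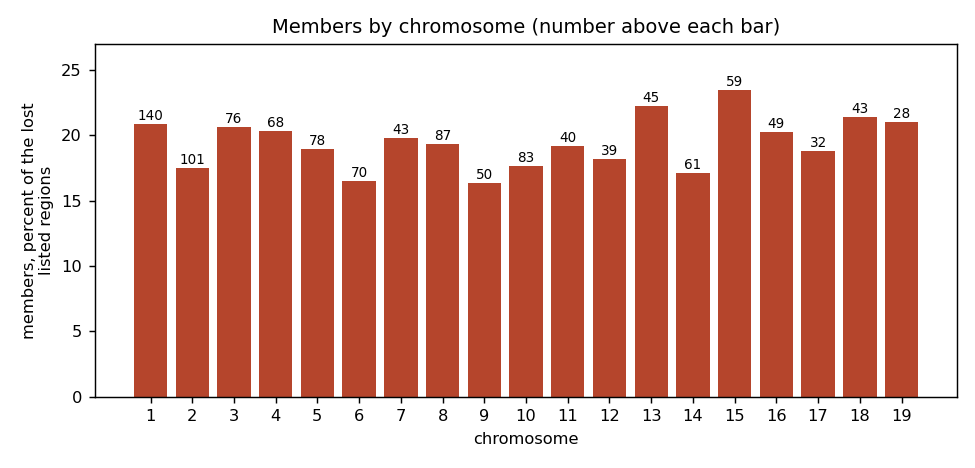
Members as percent of the listed regions with a lower mean at day 7 (y axis) on each of the 19 chromosomes (x axis), with the number of members above each bar. Shares lie between 16.4% on chromosome 9 and 23.5% on chromosome 15.

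Members had a listed neighbour of either direction within 10 kb about as often as other losses. The nearest other region of the day 7 table was a median of 7300 bases away, and 485 members (40.7%) had none within 10 kb. That share was 41.9% in the losses that overlapped a day 5 region and 40.1% in all listed regions with a lower mean at day 7. Another lower region lay within 5 kb of 318 members (26.7%), and within 5 kb of 27.2% of the losses that overlapped a day 5 region. A region higher at day 7 lay within 5 kb of 216 members (18.1%), 13.1% of those losses and 30.2% of the regions gained at day 7 only. In all listed regions with a lower mean at day 7, these shares were 25.7% for a lower and 15.8% for a higher neighbour. The differences were not tested. Another member lay within 5 kb of 75 members (6.29%), which formed 36 pairs and 1 group of 3.

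The group of 3 spans 9700 bp on chromosome 2. Its first region, chr2:820901-822000, had 225 and 209 normalised reads at day 7, against 287 and 269 at day 0 (log2 change -0.36, SE 0.08). The middle one, chr2:825801-826800, had 170 and 103 at day 7, against 223 and 210 at day 0 (log2 change -0.71, SE 0.18). The last, chr2:829601-830600, had 204 and 180 at day 7, against 240 and 234 at day 0 (log2 change -0.31, SE 0.09). The middle region has the largest change and also day 7 libraries that differ more from each other than in its neighbours. The span holds 4 lower and 0 higher listed regions.

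The pair with the lowest median change lies on chromosome 1. There, chr1:30482301-30483400 had 154 and 130 normalised reads at day 7, against 290 and 212 at day 0 (log2 change -0.81, SE 0.14). Its partner, chr1:30484701-30485700, had 291 and 237 at day 7, against 412 and 407 at day 0 (log2 change -0.64, SE 0.09). Both regions have separate groups, and the second has more reads per kb at either day.

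Absence from the day 5 list does not mean that a region was unchanged at day 5, because no values are given for windows left unlisted. Many members lay near a day 5 region: within 1 kb in 124 (10.4%), within 5 kb in 426 (35.7%) and within 50 kb in 1110 (93.0%). The median distance was 8800 bases. In the regions gained at day 7 only, 11.2% lay within 1 kb of a day 5 region and 35.8% within 5 kb.

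In 15 members a day 5 region adjoined with no base between. The member chr10:20697801-20699700 had 282 and 240 normalised reads at day 7, against 473 and 405 at day 0 (log2 change -0.75, SE 0.10). The adjoining day 5 region, chr10:20694101-20697800, had 1477 and 1502 normalised reads at day 5, against 1000 and 1017 at day 0, a ratio of 1.48, so that neighbouring stretches were listed with opposite directions on the 2 days. On chromosome 15, the member chr15:15082601-15083600 had 157 and 134 normalised reads at day 7, against 212 and 259 at day 0. The day 5 region beside it, chr15:15081001-15082600, had 271 and 279 at day 5, against 386 and 427 at day 0, a ratio of 0.677, which is a loss at both. The member chr1:30484701-30485700, described above, adjoined chr1:30485701-30487200, which had 383 and 378 at day 5, against 604 and 513 at day 0 (ratio 0.681). The day 5 and day 7 comparisons share their day 0 libraries, and each table has its own scale.

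The member farthest from any other listed region of either table, chr11:8568001-8569100, was 256500 bases from the nearest. It had 217 and 219 normalised reads at day 7, against 280 and 259 at day 0 (log2 change -0.31, SE 0.08). Its day 7 libraries were almost equal. Second in distance, chr19:13839601-13841400 had 301 and 335 at day 7, against 408 and 400 at day 0 (log2 change -0.35, SE 0.08), 217400 bases from the nearest. The input changes of these regions were -0.30 and -0.48 on the log2 scale, which leaves changes relative to input of -0.01 and 0.14.

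The median fold between replicate libraries of the members was 1.08 at day 7 and 1.06 at day 0, and over all listed regions it was 1.06 and 1.05. In the members the lowest day 0 library was a median of 1.22 times the highest day 7 library. The limma SE of the log2 change had a median of 0.08 and a range of 0.07 to 0.20, and counting error by itself gives a median of 0.09. The median SE is thus below counting error alone, so the printed SEs may be too small. The day 7 libraries differed most at chr1:13576601-13577600, with 203 and 110 normalised reads at day 7, against 238 and 225 at day 0 (log2 change -0.63, SE 0.20). There the first day 7 library lies near day 0 and the second far below it. At chr13:534301-535300 the values were 167 and 94.3 at day 7, against 206 and 212 at day 0 (log2 change -0.74, SE 0.20), again with the first day 7 library above the second.

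The ratio limit cuts through a continuous distribution. Within 0.01 of it lay 104 members and, past it, 104 regions that met the other conditions. Just inside, chr14:9997501-9998800 had 252 and 247 normalised reads at day 7, against 304 and 295 at day 0. Just outside, chr5:19959301-19961000 had 729 and 724 at day 7, against 915 and 828 at day 0. The replicate spread of such regions is larger than their distance from the limit. When any 1 of the 4 libraries was left out in turn, 862 of the 1193 members kept a ratio of at most 0.833 each time.

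The reads behind a member, recovered from the normalised values, were a median of 180 and 223 in the day 7 libraries, against 332 and 338 at day 0. The lowest was 93 reads and the highest 2109. The members' share of a library's reads in listed regions was 6.58% and 6.44% at day 7, against 8.78% and 8.60% at day 0. The scale matters for the size of the loss: the trimmed mean 1000 bp bin held 77.8 normalised reads at day 7, against 68.8 at day 0. Relative to that bin, the median member stood at 2.52 times at day 7 and 3.71 times at day 0.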

How the data were processed

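For these H3K9ac and input ChIP-seq libraries the submitters' processing notes name Bowtie. Its role and version are not stated in the sources used here. The deposited tables were made with diffReps 1.55.4, per the file headers, with windows of 1000 bp, steps of 100 bp and a window p-value threshold of 0.0001. They list only windows past that threshold, merged into regions. The day 7 header also gives a deviation cutoff of 2. Among listed regions with a lower mean at day 7, the lowest day 0 mean was 203.86 normalised reads. Among those with a higher mean, the lowest day 7 mean was 216.15. The deposited normalised read values of both libraries of a group share a cell. The deposited mean signal per group, the fold enrichment (a ratio over background), the log2 change of a region and of its strongest window, and the p-value with its adjustment over 57991 windows stand beside them. The background was crossed, per the file headers: day 7 libraries were set against day 0 inputs and day 0 libraries against day 7 inputs, which leaves the geometric mean enrichment as it is.

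Regions were matched between tables by chromosome number. Values multiplied by the library constant were whole within 0.1 in 100% of values, which gave the reads, and these are reads in listed regions, not library depths. PCR reads carry no molecular identifiers, so counting errors cover counting only. limma 3.58.1 (R 4.3.3) was fitted to log2 normalised reads of all 12101 regions, without a pseudocount, with a variance trend in the prior and p-values adjusted by Benjamini-Hochberg. The planned count test was not used: the deposited values are normalised, and no count test was run on the recovered reads. Printed log2 changes and SEs of single regions come from limma, while medians and ratios over sets come from the means. Other values were computed with pandas 2.3.3. Named regions are the extremes of change, reads, enrichment, length, replicate difference, input change and distance, the closest runs, and those next to the ratio limit. The members and lists were chosen with earlier results of these data known.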

Additional observations from a re-analysis of the deposited data

How the results depend on the processing

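The number of members depended most on the limit and the scaling. A ratio of at most 0.75 left 574 regions. With unscaled reads the rule gave 2342, and with reads divided by the trimmed mean per bin, a setting chosen after seeing the data, 2178. On those scales the median log2 change of the 1193 members was -0.73 and -0.58. The median of all listed regions shifted by -0.32 and -0.18. Members lay 0.35 and 0.34 below that median, against 0.34 on the normalised scale. A change of scale moves all regions by nearly the same log2 amount, so this distance was bound to stay and carries no support. An enrichment of at least 1 gave 1140 members, and leaving out 1 library gave 1163 to 1215 regions. These were not all the same regions: 1049 to 1094 of the 1193 members kept the ratio, and others entered. The median log2 change of the 1193 members was then -0.42 to -0.39. The shifts between scales follow from the constants per library (0.79 and 1.00 at day 7, 1.11 and 1.13 at day 0) and the trimmed means. What lies behind those differences between libraries was not tested. A lower neighbour lay within 2 kb of 153 members and within 10 kb of 497. limma called 1193 members lower under each scaling and 1090 to 1186 without 1 library, where the single sample left in a group is assumed to vary like the other group. Of 423 values of the 47 named regions under other settings, 412 kept their direction and call, 11 kept the direction but lost the call when 1 library was left out (log2 changes of -0.26 to -0.17, 7 of them without day 0 replicate 1), and 0 reversed. Whether the replicate numbers pair the samples is not stated. The replicate differences of day 7 and day 0 correlated at 0.09 across listed regions, which does not settle it. With the replicate block limma called 1193 members. The depth limits which changes could be listed, and permuting 2 against 2 libraries exactly cannot bring any region under 0.05.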

Other observations

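In 12 members (1.01%) the region shared bases with a listed region that was higher at day 7. This was so in 52 of the 2676 losses that overlapped a day 5 region (1.94%) and in 236 of all 6206 listed regions with a lower mean at day 7 (3.80%), and the difference was not tested. At chr3:14217901-14218900 the member had 169 and 124 normalised reads at day 7, against 224 and 207 at day 0. The higher region chr3:14218601-14220700, which shares 300 bp with it, had 618 and 638 at day 7, against 390 and 398 at day 0. The log2 changes were -0.56 and 0.67, although some reads are counted in both. On chromosome 2, chr2:4707301-4708300 had 373 and 354 at day 7, against 563 and 422 at day 0, and the higher region chr2:4706301-4707400, sharing 100 bp, had 234 and 290 at day 7, against 176 and 177 at day 0 (log2 changes -0.44 and 0.57). In the other 10 the higher region had log2 changes between 0.03 and 0.35. Within 5 kb, without counting overlaps, 49 members had both a lower and a higher neighbour.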
